A study of Capitella teleta with 12 samples.

Results

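In *Capitella teleta*, a marine annelid whose embryo divides by spiral cleavage, 43 of 32415 gene models had no count in any embryo of the 8-cell stage and at least 1 count in every embryo of the 16- and 32-cell stages. They were chosen by that rule on the measured counts alone, so their absence at the 8-cell stage and their presence later are descriptions and not findings. A cleaving embryo first lives on RNA laid down in the egg by the mother, and its own genome is then switched on in steps while part of the maternal RNA is degraded. Transcripts that are absent from the earliest embryo and appear during cleavage are therefore candidates for the first products of the embryo's own genome. The counts are of polyadenylated RNA, and they do not separate new transcription from any other gain of an RNA in that pool. The 16-cell stage is also the time at which the single cell 2d of this embryo acts as an organizer, the cell that instructs its neighbours which fate and axis to take.

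RNA was measured in 12 single whole embryos by CEL-Seq, which captures the 3′ end of polyadenylated RNA and marks every molecule and its embryo of origin with short barcodes, so that a count stands for a molecule and not for a length of transcript. Of these, 4 were 8-cell, 3 were 16-cell and 5 were 32-cell embryos, and the labels name no treatment or genotype for any of them. Which broods they came from is not given in the sources used here, so the p-values measure the spread between these embryos only. The total was 286145 to 451149 counts in an 8-cell embryo, 313356 to 491733 in a 16-cell embryo and 236321 to 408777 in a 32-cell embryo. Of the gene models, 20716 were counted in 1 or more embryos.

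At these depths the rule selected gene models close to the limit of detection. A count of 0 over the 4 embryos of the 8-cell stage allows a level of up to 2.18 CPM (each count over the total of its embryo, times 1000000), taking 3 counts over their summed total of 1373768 as the limit. This limit covers counting error only. The counts of the 43 summed over the 12 embryos ran between 11 and 418, with a median of 26. For 32 of them the lowest later embryo held a single count, for 7 it held 2 and for 3 it held 3. Gene model 144340 was the exception, with 17 counts in its lowest later embryo. The largest count of any member was 110, against 1024 for the largest value in the table.

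Of the 16590 gene models without a count at the 8-cell stage, 11699 had none later either. The number fell steadily with the number of later embryos that held a count, with 2516 gene models counted in 1 of the 8 later embryos, 126 in 6, 63 in 7 and 43 in all 8. In the 63 just outside, the embryo without a count was of the 16-cell stage for 26 and of the 32-cell stage for 37. By embryo these were 11, 8 and 7 over the 3 of the 16-cell stage, and 4, 7, 6, 10 and 10 over the 5 of the 32-cell stage. Leaving out an embryo drops 1 condition of the rule, so the number selected could only stay or rise. It came to between 47 and 83 with any 1 embryo left out. The embryos of the 8-cell stage weighed most, with 64 gene models without replicate 1, 77 without replicate 2, 83 without replicate 3 and 66 without replicate 4. Requiring at least 2 counts in every later embryo left 11.

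**Figure D1:**
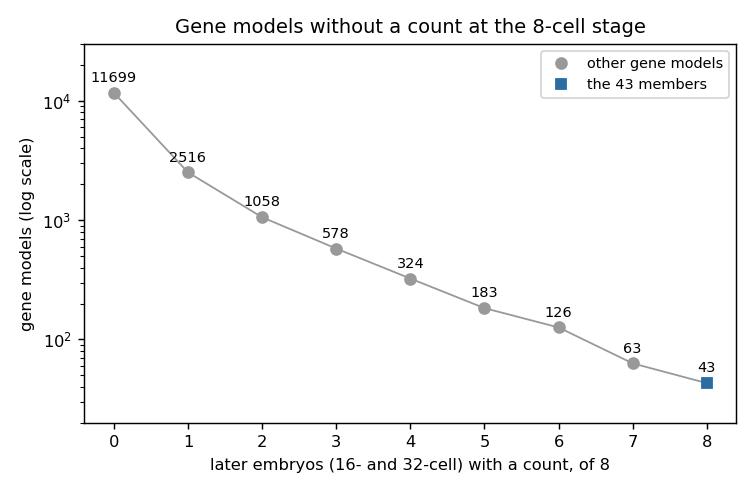
Number of gene models without a count at the 8-cell stage (vertical axis, log scale) against the number of 16- and 32-cell embryos, of 8, that held a count. The blue square marks the 43 members, which lie at the end of a falling series from 11699 to 63 gene models.

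Just inside the rule lay gene models 55025 and 197233, each with 11 counts, and 229153 with 13. Gene model 55025 held 1, 1, 1, 1 and 2 counts in the embryos of the 32-cell stage and 1, 1 and 3 counts in those of the 16-cell stage. Just outside lay 80 gene models with a count in every later embryo and 1 count in all at the 8-cell stage. The most abundant of these, gene model 217792, held 135, 224, 127, 128 and 135 counts in 32-cell embryos, 12, 8 and 13 in 16-cell embryos, and a single count in 8-cell replicate 3. Its mean level over the later embryos was above that of every member, and 1 molecule kept it out. Gene models 104664 and 111275 were next in this class, with 301 and 305 counts over the embryos of the 32-cell stage, 5 and 13 over those of the 16-cell stage, and 1 count each at the 8-cell stage.

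Most members were moderate to low in abundance. Their mean level over the 8 later embryos ran between 4.04 and 165 CPM (median 9.44 CPM), with 21 of 43 at 10 CPM or more, 6 at 20 or more and 2 at 100 or more. Ranked among the 18098 gene models detected at the 32-cell stage, they lay between percentiles 42.9 and 95.3 (median 57.7). Among the 16552 detected at the 16-cell stage they lay between percentiles 30.3 and 86.2 (median 51.6). Had the 8-cell embryos held each member at its 16-cell level, between 3.36 and 142 counts would have been collected from them (median 11.2).

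Set against the limit of 2.18 CPM at the 8-cell stage, the bounds were modest for most members. Each bound allows for counting error at the 8-cell stage only and takes the later level as measured. At the 32-cell stage the bounds ran between 1.75-fold and 119-fold (median 4.67), with 20 of 43 at 5-fold or more and 6 at 10-fold or more. The lowest, that of gene model 55025, rested on 6 counts. At the 16-cell stage 3 members, 157984, 197233 and 197764, held only 3 counts, so no fold is given for them. For the other 40 the bound ran between 1.49-fold and 47.4-fold (median 3.73), with 12 at 5-fold or more and 4 at 10-fold or more. These 4 were gene models 144340, 219502, 179505 and 108871, and they were the members with the clearest step between the 8- and the 16-cell stage. These bounds repeat what the rule used and carry no test.

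**Figure D2:**
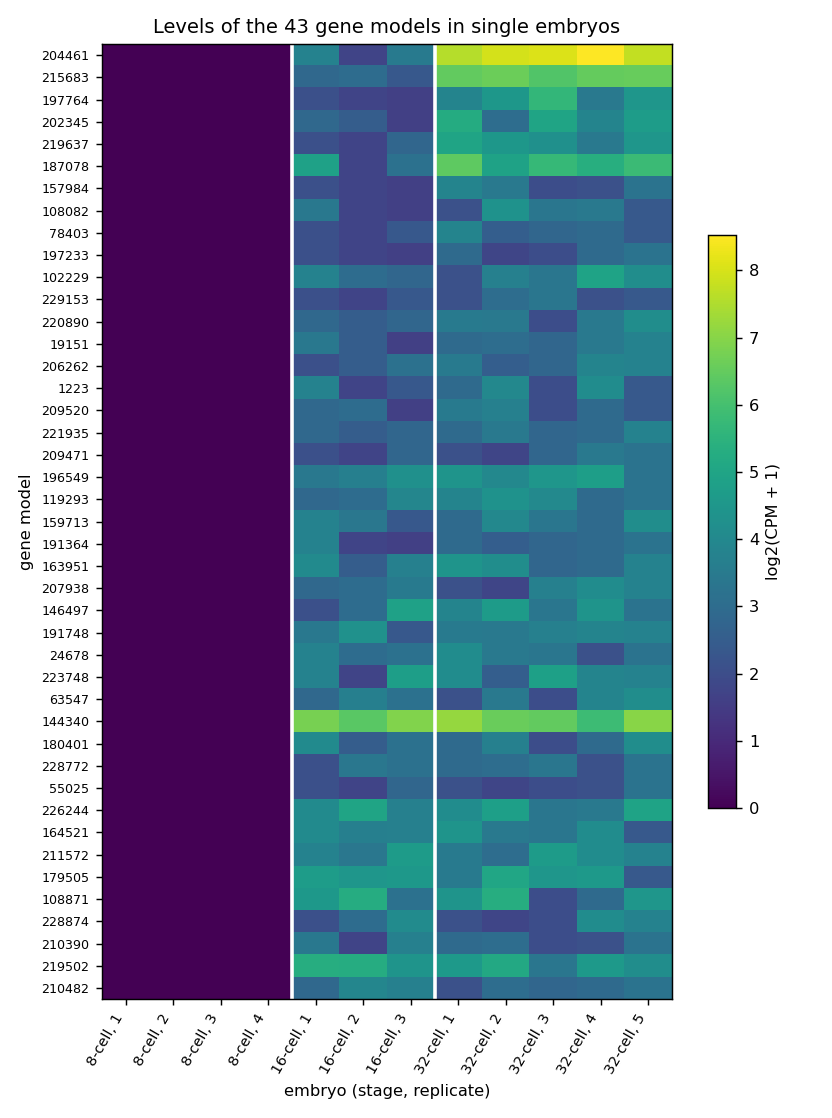
Level of each of the 43 members, as log2(CPM + 1), in each of the 12 embryos, with the stages separated by white lines and members ordered by their fold change between the 32- and the 16-cell stage. All 43 rows are at 0 at the 8-cell stage by the rule, and the rows at the top brighten at the 32-cell stage while gene model 144340 is bright in every later embryo.

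Gene model 144340 was the most abundant member at the 16-cell stage and was held at about that level. It measured 144, 95.4, 88.5, 56.9 and 127 CPM in the 5 embryos of the 32-cell stage, against 108.5, 80.5 and 120 CPM in the 3 of the 16-cell stage. The ranges overlapped, and the mean was 102 ± 34.2 CPM in 32-cell embryos (SD, n = 5) and 103 ± 20.3 CPM in 16-cell embryos (SD, n = 3). Against the 8-cell limit its bound was 46.1-fold in 32-cell embryos and 47.4-fold in 16-cell embryos. Between the later stages its log2 fold change was 0.05 with a 95% interval of -0.50 to 0.60, so a change by a factor of 2 in either direction lay outside the interval. Of all members it had the smallest standard error, 0.26.

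Gene model 204461 had a different course, with a few molecules per embryo at the 16-cell stage and the highest level of all members at the 32-cell stage. Its counts were 57, 102, 88, 110 and 51 in the embryos of the 32-cell stage, against 4, 1 and 5 in those of the 16-cell stage. In CPM these were 191, 249.5, 269, 368 and 216, against 12.8, 2.37 and 10.2. Every embryo of the 32-cell stage lay well above every embryo of the 16-cell stage, with a mean of 259 ± 68.0 CPM in the 32-cell embryos (SD, n = 5) against 8.43 ± 5.41 CPM in the 16-cell embryos (SD, n = 3). Among detected gene models it stood at percentile 95.3 in 32-cell embryos and at percentile 51.6 in 16-cell embryos.

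The rule did not set the contrast between the 32- and the 16-cell embryos, but it still bore on that contrast. It asked for a count in 5 embryos of the 32-cell stage and in 3 of the 16-cell stage. A single count was 4.23 CPM in 32-cell replicate 5 and 2.03 CPM in 16-cell replicate 3. The contrast, the only one between stages to be tested, was run with edgeR's quasi-likelihood test over the 11854 gene models with at least 10 counts. These include all 43 members. Adjustment was by Benjamini-Hochberg over all 11854, with a threshold of 0.05. Gene models 204461, 215683, 197764 and 187078 rose, which is 4 of 43 members, beside 1.74% of all gene models tested (206 of 11854). No member fell (0 of 43), beside 0.472% of all (56 of 11854). At an unadjusted p under 0.05 there were 6 members higher and 0 lower, a count not taken over all gene models. DESeq2's Wald test called 3 higher and 0 lower of the 34 members to which it gave an adjusted p. Over all gene models it called 181 higher and 30 lower of 9736. The median log2 fold change was 0.42 over the members and -0.00 over all gene models tested. Values were positive for 34 members (79.1%) and negative for 9, beside 49.8% positive over all gene models tested. How far the rule itself set these counts and values was not tested.

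For gene model 204461 the log2 fold change was 5.00 (SE 0.36, edgeR adjusted p = 2.04e-09). Gene model 215683 followed, with 26, 40, 24, 27 and 22 counts in the embryos of the 32-cell stage against 2, 3 and 2 in those of the 16-cell stage. Its embryos differed little within a stage. The mean was 88.4 ± 9.29 CPM in 32-cell embryos (SD, n = 5) and 5.85 ± 1.59 CPM in 16-cell embryos (SD, n = 3), without overlap. Its log2 fold change was 3.93 (SE 0.39, edgeR adjusted p = 4.31e-07). Both calls held under every alternative run and with any 1 embryo left out.

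The calls for the other 2 members rested on fewer molecules. Gene model 197764 held 4, 9, 16, 3 and 5 counts in the embryos of the 32-cell stage and 1 count in each embryo of the 16-cell stage. The mean was 23.1 ± 15.3 CPM in 32-cell embryos (SD, n = 5) and 2.53 ± 0.60 CPM in 16-cell embryos (SD, n = 3). The log2 fold change was 3.14 (SE 0.74, edgeR adjusted p = 0.0200). The call was lost with DESeq2's Wald test (adjusted p = 0.0837). In edgeR it was lost without 16-cell replicate 1, 2 or 3 (adjusted p = 0.0569, 0.0966 and 0.130) and without 32-cell replicate 3, the embryo with 16 counts (adjusted p = 0.0805).

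Gene model 187078 held 25, 12, 17, 12 and 13 counts in the embryos of the 32-cell stage against 9, 1 and 4 in those of the 16-cell stage. No embryo of the 32-cell stage, at 29.4 to 83.9 CPM, fell into the range of the 16-cell stage, but 16-cell replicate 1 came close to it at 28.7 CPM while the other two stood at 2.37 and 8.13 CPM. The log2 fold change was 2.15 (SE 0.54, edgeR adjusted p = 0.0341) and became 3.22 without 16-cell replicate 1. The call was lost without 16-cell replicate 2 or 3 (edgeR adjusted p = 0.195 and 0.233), without 32-cell replicate 1, 3 or 5 (edgeR adjusted p = 0.118, 0.0613 and 0.0673) and after thinning all embryos to the smallest total (edgeR adjusted p = 0.0857).

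**Figure D3:**
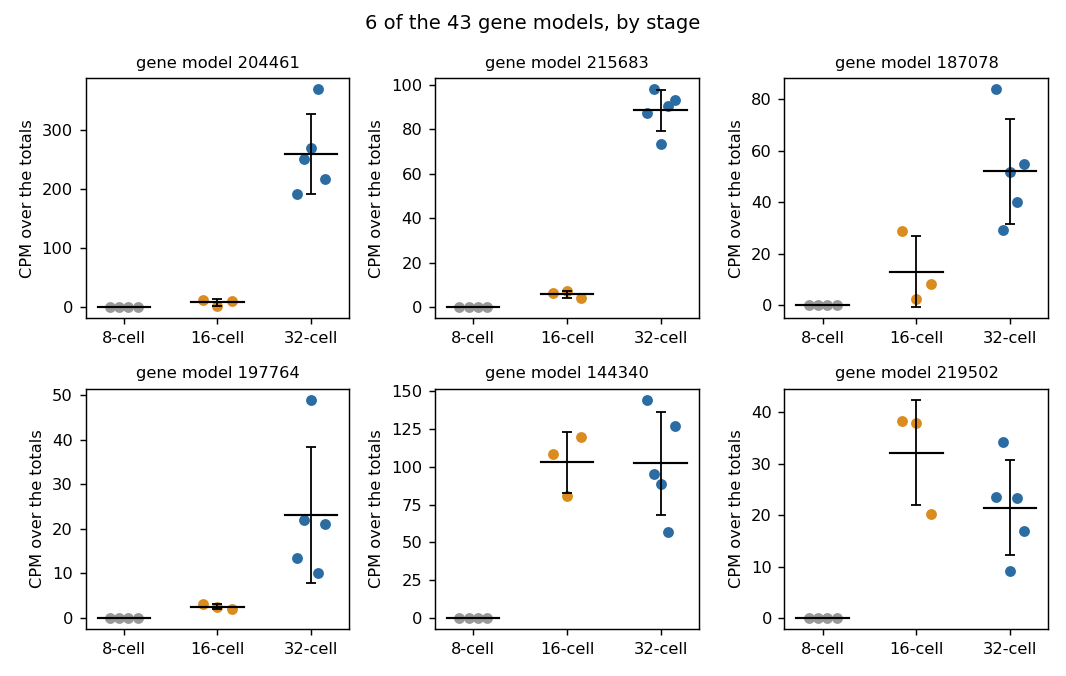
CPM over the totals in single embryos (points) for 6 members at the 8-, 16- and 32-cell stages, with the mean (line) and SD (bar) of each stage. Gene models 204461, 215683, 187078 and 197764 are higher in every embryo of the 32-cell stage than in any of the 16-cell stage, whereas 144340 and 219502 overlap between these stages.

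The CPM of the 32-cell embryos lay wholly above that of the 16-cell embryos for 7 of 43 members, beside 3.79% of all gene models tested (449 of 11854). It lay wholly below for 0 members, beside 4.83% (573 of 11854). The rule holds 32-cell replicate 5 at 4.23 CPM or more, and a single count was 2.03 to 3.19 CPM in a 16-cell embryo. A member with 1 count in any 16-cell embryo could therefore not lie wholly below, so this 0 is not read. Besides the 4 called, the members wholly above were gene models 202345, 219637 and 78403, named here because they complete the count of 7. Gene model 202345 held 11, 3, 10, 4 and 6 counts in the embryos of the 32-cell stage against 2, 2 and 1 in those of the 16-cell stage. Its log2 fold change of 2.40 missed the threshold (SE 0.69, edgeR adjusted p = 0.0856) and passed it without a minimum count (adjusted p = 0.0401) or without 32-cell replicate 2 (adjusted p = 0.0325). Gene model 219637 held 9, 9, 6, 3 and 5 counts against 1, 1 and 3, and its value of 2.30 likewise missed it (SE 0.63, edgeR adjusted p = 0.0660). It passed in a fit of the later embryos alone (adjusted p = 0.0397) and without 32-cell replicate 4 (adjusted p = 0.0423). The third, 78403, held 4, 2, 2, 2 and 1 counts against 1, 1 and 2, too few to separate 1.10 on the log2 scale from 0 (95% interval -0.55 to 2.74).

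**Figure D4:**
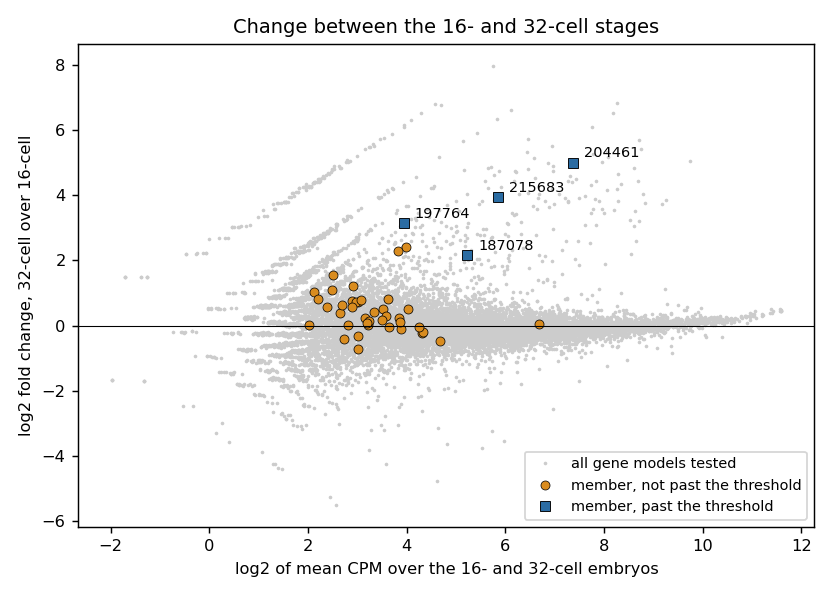
Log2 fold change between the 32- and the 16-cell stage (vertical axis) against the log2 of the mean CPM over the embryos of these stages, for the 11854 gene models tested (grey), with members past the threshold as blue squares and the other members as orange circles. The 4 blue squares lie between 2.15 and 5.00, and most orange circles lie within 1 of 0.

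The other 39 members had no call, and the log2 fold change of 33 of the 43 lay within a factor of 2. The standard errors ran up to 1.07 (median 0.66), so for most members a change of that size could not have been told from none at this depth. The next most abundant members after those already described were among these. Gene model 219502 held 7, 14, 3, 7 and 4 counts in the embryos of the 32-cell stage against 12, 16 and 10 in those of the 16-cell stage, which is a mean of 21.4 ± 9.26 CPM in 32-cell embryos (SD, n = 5) against 32.2 ± 10.3 CPM in 16-cell embryos (SD, n = 3). The ranges overlapped, and the 95% interval of its log2 fold change was -1.37 to 0.45. Gene model 179505 was even across the 16-cell stage, with 8, 9 and 11 counts, and uneven at the 32-cell stage, with 3, 13, 7, 7 and 1 (interval -1.22 to 0.83). Gene model 196549 held 6, 6, 7, 8 and 2 counts at the 32-cell stage against 3, 5 and 9 at the 16-cell stage (interval -0.57 to 1.56).

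The measured spread between embryos of the same stage differed among the members. It was measured as the chi-square of the counts per degree of freedom, which is about 1 where counting alone sets it. Asking for a count in every later embryo leaves out low draws, so the rule itself holds down the spread of members with few counts, and low values of the measure are not read here. The measure was above 2 for 7 members at each stage. With so few embryos it can pass 2 by counting alone. It was not taken over all gene models, so these counts of members are not read either. It was highest for 204461 among the 32-cell embryos (5.21) and for 187078 among the 16-cell embryos (5.86). Gene model 108871 was above 2 at both stages, with 6, 16, 1, 2 and 5 counts in the embryos of the 32-cell stage and 7, 16 and 4 in those of the 16-cell stage. Gene model 226244 held 5, 11, 3, 3 and 7 counts in 32-cell embryos and 5, 13 and 6 in 16-cell embryos, where the measure was 2.14. The median member stood at 9.57, 4.74 and 8.13 CPM in 16-cell replicates 1, 2 and 3, and replicate 2 held the lowest value of its stage for 19 members.

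Summed over all 43, the members took up a small part of the counted RNA, larger at the 32- than at the 16-cell stage. Their share was 0.0949 ± 0.00382% of the counts of an embryo at the 32-cell stage (SD, n = 5, 1489 counts in all) and 0.0490 ± 0.00529% at the 16-cell stage (SD, n = 3, 598 counts). The 5 embryos of the 32-cell stage held 0.0888 to 0.0993% and the 3 of the 16-cell stage 0.0431 to 0.0533%, without overlap. As the rule fixes the 0 at the 8-cell stage and the members were chosen with these counts, the sums carry no test. Much of the gap was 1 gene model. Without 204461 the share was 0.0690 ± 0.00640% in 32-cell embryos and 0.0482 ± 0.00475% in 16-cell embryos. Without all 4 members called higher it was 0.0527 ± 0.00581% in 32-cell embryos and 0.0460 ± 0.00377% in 16-cell embryos. The ranges then overlapped, at 0.0446 to 0.0571% and 0.0417 to 0.0482%. Those 4 were picked by this same contrast, so leaving them out was bound to narrow the gap.

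**Figure D5:**
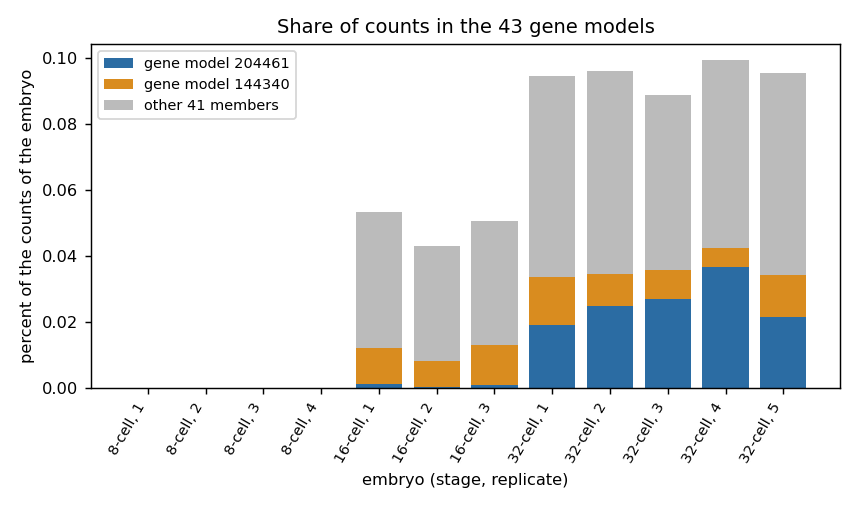
Percent of the counts of each embryo that fell in the 43 members, with gene models 204461 and 144340 in colour and the other 41 in grey. The bars reach 0.0888 to 0.0993% in 32-cell embryos and 0.0431 to 0.0533% in 16-cell embryos, and are at 0 in 8-cell embryos by the rule.

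The study that produced these embryos asked which TGF-β signals the organizer cell 2d uses. TGF-β ligands such as BMPs, Activin and Nodal bind paired receptor kinases that phosphorylate Smad proteins, and secreted antagonists such as Noggin hold ligands away from the receptors. Of 33 components of this pathway listed by the study, 32 were in the count table and 0 were members. Members were 43 of all 32415 gene models, so a 0 among 32 components is not read. A count in every later embryo was found for 13 of the 32, a number not taken over all gene models. None at the 8-cell stage was found for 12, of which 9 were counted later. Over all gene models 16590 had none at the 8-cell stage, of which 4891 were counted later. Noggin A, an antagonist of BMP ligands, came closest to the rule, with 12, 37, 13, 12 and 8 counts in the embryos of the 32-cell stage and 2, 2 and 0 in those of the 16-cell stage. A single 16-cell embryo without a count kept it out. It was 1 of the 3 most abundant gene models in that class. The other two, 204602 and 215798, also lacked a count in 1 embryo of the 16-cell stage, replicate 2, and held 219 and 120 counts over the 5 embryos of the 32-cell stage.

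No member had a gene name in the tables used here, so no function can be given for any of them. Positions were found for 42 members in the annotation of the same assembly, Capca1, and the entries used here carry no scaffold names. In flies, genes switched on earliest in the embryo tend to be short and to have few introns. Here the span of the gene model on the genome had a median of 2324 bp over the members (318 to 19771 bp), beside 2891 bp over all gene models tested and 2403 bp over all detected. Spans under 1000 bp made up 16.7% of the members and 13.0% of gene models tested, and spans over 5000 bp made up 33.3% and 23.9%. The members called between the 32- and the 16-cell stage ranged widely in span. Gene model 204461 spanned 411 bp (349650 to 350060 of its scaffold), 187078 spanned 705 bp (72198 to 72902), 197764 spanned 1567 bp (10750 to 12316) and 215683 spanned 5425 bp (17999 to 23423). Gene model 144340 spanned 1674 bp (145573 to 147246).

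As the annotation entries used here carry no scaffold names, neighbours were inferred from the order of the entries. Adjacent entries were taken as neighbours where the start did not go back, and some pairs may lie on different scaffolds. Of the 78 gene models inferred to be next to a member, 45 (57.7%) had a count at the 8-cell stage, beside 64.2% of the neighbours of all gene models tested. Another 9 (11.5%) were without a count at the 8-cell stage and had one later, beside 13.3%. The spans of 157984, 179505 and 229153 each overlapped that of an inferred neighbour, and where such a pair shares a scaffold its reads may be split between the models. Among the inferred neighbours of the called members, picked out after their values were seen, gene model 215684, listed 1987 bp after 215683, held 8, 21, 16, 8 and 9 counts in 32-cell embryos, 9, 2 and 9 in 16-cell embryos, and 0, 0, 1 and 1 in 8-cell embryos. Gene model 197763, listed 790 bp before 197764, held 9, 25, 9, 9 and 4 counts in 32-cell embryos, 1, 0 and 3 in 16-cell embryos, and 1, 0, 1 and 0 in 8-cell embryos. Both inferred neighbours of 204461 were without a count, as were 58085, listed before 215683, and 167444, listed before 187078. Gene model 173399, listed after 197764, held 2, 3 and 4 counts summed over the 8-, 16- and 32-cell embryos. Gene model 219423, listed after 187078, held 1, 0 and 2.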

How the data were processed

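Total RNA of single embryos was amplified by CEL-Seq with 1 barcode per embryo and sequenced on 1 lane. The authors mapped reads with Bowtie2 to the *C. teleta* genome and counted unique molecular identifiers per gene model with HTSeq. Their methods also describe a binomial conversion from identifiers to transcripts. They deposited whole-number counts, not normalized, for 32415 gene models. The deposited normalized table and the authors' table of their DESeq2 test (fold changes and p-values) were not used. The versions of Bowtie2 and HTSeq are not given in the sources used here. Stages and replicate numbers came from the labels.

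Tests were run with edgeR 4.0.16 and, as an alternative, DESeq2 1.42.0 (R 4.3.3), and all else in Python 3.11.15. All 12 embryos entered 1 fit with TMM scaling and no covariates, over gene models with at least 10 summed counts. Scripts were tested on simulated data. Totals ranged from 236321 to 491733. Limits for a level of 0 used 3 counts. Members and lists were chosen with earlier results of these data known. Named members were the 10 of highest mean CPM over the later embryos, up to 6 called in each direction, the 3 with fewest counts, any TGF-β component or annotated gene, and the 3 most abundant gene models just outside the rule on each side. Of the gene model numbers, 31968 (98.6%) matched the annotation, from which neither exon numbers nor sequences were taken. Alternatives were other scalings, count minimums, thinning, DESeq2's test, the later embryos alone, a threshold of 0.1, a replicate block and each embryo left out in turn.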

Additional observations from a re-analysis of the deposited data

Results flagged for a closer look

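At the 32-cell stage 17 sets of values were examined, 1 for each named member and 1 for the share of counts in all members. Of these, 2 held an embryo far from the others. Chance gives about 1 in 20 for continuous values, a rate that does not carry over to counts this low, which the rule also holds at 1 or more. Gene model 78403 stood at 13.4 CPM in 32-cell replicate 1, on 4 counts, against 1 or 2 counts in the other embryos of that stage. Gene model 55025 stood at 8.46 CPM in 32-cell replicate 5, on 2 counts against 1 in each of the others, and no embryo had a lower total (236321).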

How the results depend on the processing

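The number of members depended on the rule, with 11 at 2 or more counts in every later embryo, 106 at a count in 7 of the 8, 123 when 1 count was allowed at the 8-cell stage, 31 after thinning (20 of them shared with the 43), and 47 to 83 with any 1 embryo left out. The number of members higher at the 32-cell stage than at the 16-cell stage was 2 to 5 with any 1 embryo left out (2 when that was replicate 2 or 3 of the 16-cell stage or replicate 3 of the 32-cell stage), 3 to 5 under the other settings and 6 at a threshold of 0.1, and 0 were lower under each. The median log2 fold change was 2.20 under edgeR's filterByExpr, which kept 5 of the 43 members, and 0.35 to 0.49 under the other settings. The share of counts at the 32-cell stage was 0.0690% without the most abundant member. Over all gene models tested, the number lower was 56 in the fit reported, 30 with DESeq2's Wald test, 89 with scaling by totals and 105 without a minimum count, where the number higher was 320 against 206.

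Direction was not settled for 5 named members, none of which passed the threshold in any setting. The log2 fold change of 144340 was -0.019 with scaling by totals and -0.10 to 0.21 with 1 embryo left out. That of 179505 was 0.014 after thinning and -0.49 to 0.011 with 1 left out. That of 108871 was -0.77 to 0.43 with 1 left out. That of 226244 was 0.022 with DESeq2's size factors and 0.023 in its Wald test, and -0.30 to 0.47 with 1 left out. That of 55025 was -0.052 with scaling by totals and -0.24 to 0.19 with 1 left out. The cause was not tested. Embryos with the same replicate number did not deviate together (r = -0.02, 0.04 and 0.03 between the 16- and 32-cell stages). With replicate number as a block, 4 members were higher and 0 lower, with a median of 0.36, and 55025 stood at -0.31. Depth limits these values, since only 8 of the 43 members held 50 counts or more.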
